A study of Drosophila melanogaster with 2 samples.

Results

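Expression of 5 genes that lie in pericentromeric heterochromatin was compared between sensory organ precursor cells (SOPs) and epithelial cells of the *Drosophila* notum. The genes were *RpL15*, *Dbp80*, *Nipped-B*, *p120ctn* and *Gprk1*, and their features were found by gene symbol, a rule that uses no measured value, although the genes were picked with earlier results of these data known. By gene symbol they hold 6 of the 15744 features of the array, 1 for each gene and 2 for *Dbp80*. Of all features, 15676 carry no gene symbol here, and further features of the 5 genes may be among them. All 6 had a value on both arrays. The annotation used here names a single gene for 67 features (63 genes), so 61 other features (58 genes) served as named comparison. This comparison is no euchromatic background. Of its features, 11 are on a list of other heterochromatic genes and 6 on a list of Y chromosome genes. More of them, such as those of *CG17684*, *Scp1* and *Stlk*, lie at a centromere end.

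Pericentromeric heterochromatin is the compact, repeat-rich chromatin on both sides of each centromere. It silences euchromatic genes that are moved next to it, yet it also holds genes of its own, which are transcribed there and often depend on heterochromatin proteins for full activity. Their introns are often filled with remnants of transposable elements. Of the 5 genes, *RpL15*, *Dbp80* and *Nipped-B* serve functions that every cell uses. *p120ctn* is not needed for viability in *Drosophila*, so that the genes are grouped here by their place and not by a requirement for life.

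The RefSeq gene table of Release 6 places all 5 genes at the centromere ends of their arms. On arm 3L, which ends at the centromere with its last gene, 8 of the 3482 listed genes lie beyond *RpL15* and 5 beyond *Dbp80*. On arm 2R, which starts at the centromere, *Gprk1* is preceded by 39, *p120ctn* by 43 and *Nipped-B* by 47 of 3649 listed genes. By gene order, all 5 genes thus lie where the choice of the genes says.

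The animals were *neur*>mCD8::GFP pupae, taken 16 h after puparium formation (APF), in which a *neuralized*-Gal4 driver puts a membrane-bound GFP into SOPs and their progeny. About 1000 such cells per sample were cut out of the notum by laser under fluorescence. Each cut was a circle that left a space around the SOP, so the SOP sample can also hold parts of neighbouring cells. The epithelial cells of the other channel were cut from areas without visible GFP in nota of the same genotype and age. The paper still detected *gfp* transcripts in that sample. How far such mixing draws the ratios towards equality was not tested. RNA pooled from many animals was amplified in successive rounds of in vitro transcription and hybridised on 2 two-colour arrays, the first of which (array 1) had the SOPs in Cy3 and the second (array 2) in Cy5.

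Each value is the log2 ratio of the 2 channels of an array. Its direction is not stated in the table and was taken as SOPs over epithelial cells, which is likely from the overexpressed genes printed with the study. Both columns were taken to run the same way in spite of the swapped dyes, since most printed ratios looked up equal a mean of both columns. The arrays also correlated positively, which alone does not settle this. Across all 15729 features measured on both arrays the correlation was r = 0.535 (Spearman's rho = 0.349), and across the 67 named features r = 0.613 (rho = 0.537). Features of an array share RNA, dye and hybridisation and are no independent replicates. The medians of all features were -0.01 on array 1 and 0 on array 2. None of 12 SOP marker genes has a named feature, so the identity of the SOPs was not checked here. Of the epithelial and cuticle markers 1 of 5 is named, *Cht10* (chitinase) with -0.89 on array 1 and -0.61 on array 2. Of the muscle markers 1 of 9 is named, *up* (troponin T) with 0.27 and -0.52. The hemocyte, fat body and trachea markers have no named feature, and the part of such cells in the ratios was not tested. In cut tissue, fewer cells of a type and less RNA per cell cannot be told apart.

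The 5 genes did not move as a group. The feature of *Gprk1* and 1 of the features of *Dbp80* had ratios near 1.5 in favour of SOPs, that of *RpL15* had the lowest ratio, and the other 3 lay near equality. No feature passed the test after adjustment over all features (limma, Benjamini-Hochberg, adjusted p between 0.194 and 0.960). The same test called 0 features in either direction among all 15729 features (percent called 0).

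*RpL15* encodes a protein of the large subunit of the cytoplasmic ribosome. The log2 ratio of its feature was -0.6 on the first array and -0.35 on the other. It was lower in SOPs on both arrays, by more than the distance between them. The mean was -0.475 ± 0.177 (SD, n = 2 arrays), or 1.39 times more in epithelial cells, with a 95% interval of 1.08 to 1.79 times from limma. The adjusted p from limma was 0.248. Of all features, 4.99% had a lower mean, and among the 67 named features only *Cht10* (-0.75), *CG3558* (-0.71) and *Gfat1* (-0.515) did. Of the genes on the list of cytoplasmic ribosomal proteins, *RpL15* alone is a ribosomal protein with a named feature. The other named entry, *RpLP0-like*, enters by its symbol and encodes a relative of the stalk protein that acts in ribosome assembly. It had 0.61 and 0.25, on the opposite side of 0 to *RpL15* (adjusted p = 0.329 from limma).

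*Dbp80* encodes a DEAD-box RNA helicase that releases mRNA from its export factors at the nuclear pore. Its features, numbered 16 and 11081 in the table, gave different ratios. Feature 16 had 0.03 on array 1 and -0.22 on array 2, which averages to -0.095 ± 0.177 (SD, n = 2; 95% interval -0.456 to 0.266; adjusted p = 0.814 from limma). The arrays fell on both sides of 0. Feature 11081 had 0.45 and 0.64, both above 0 and above the values of feature 16. Its mean was 0.545 ± 0.134 (SD, n = 2), or 1.46-fold in favour of SOPs, with a 95% interval of 1.15 to 1.85 and an adjusted p of 0.194 from limma. Of all features, 3.90% had a higher mean.

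The features of *Dbp80* differed by 0.42 on array 1 and 0.86 on array 2, in the same direction. The mean difference of 0.64 ± 0.311 (SD, n = 2) on the log2 scale is 1.56-fold. With 2 arrays the exact two-sided permutation test cannot go below p = 0.5, and no other test of this difference was run. Of the other genes with 2 named features, *CG17684* differed by 0.52 on array 1, more than *Dbp80*, but by -0.02 on array 2. The features of *Gyg* differed by -0.13 and 0.24 and those of *eIF4B* by 0.06 and 0.07. On the mean these differences were 0.25, 0.055 and 0.065, all smaller than that of *Dbp80*. The mean of both features of *Dbp80* was 0.225. The oligonucleotides behind the features are not analysed here, so the transcripts each of them reads are not known. No other gene of the list of mRNA export factors and DEAD-box helicases has a named feature (1 of 14 genes).

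*Nipped-B* encodes the factor that loads the cohesin ring onto chromosomes, the relative of human NIPBL. Its feature had -0.05 on array 1 and 0.09 on array 2, on both sides of 0 and close to it. The mean was 0.02 ± 0.099 (SD, n = 2), with a 95% interval of -0.313 to 0.353 (adjusted p = 0.960 from limma). The ends of this interval lie within 1.28-fold of equality. A larger change is not excluded, since the spread of the 2 arrays may be technical only and signal over background is unknown. *Nipped-B* is the only 1 of the 12 genes on the list of cohesin and its loading with a named feature.

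*p120ctn* encodes the catenin that binds the inner part of E-cadherin next to the membrane at adherens junctions. Its feature had 0.01 on array 1 and -0.32 on array 2. Array 1 was at equality and array 2 lower in SOPs, and both averaged to -0.155 ± 0.233 (SD, n = 2; adjusted p = 0.707 from limma). The 95% interval ran from -0.544 to 0.234, which holds both equality and a level in SOPs up to 1.46 times lower. It was the only named gene on the list of 9 adherens junction genes.

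*Gprk1* encodes a kinase that phosphorylates activated G protein-coupled receptors and thereby ends their signal. Its feature had the highest mean of the 6, with 0.78 on array 1 and 0.43 on array 2. Both arrays were above 0, array 1 more so. The mean was 0.605 ± 0.247 (SD, n = 2), or 1.52-fold in favour of SOPs, with a 95% interval of 1.15 to 2.003 and an adjusted p of 0.203 from limma. It passed with robust moderation (adjusted p = 0.0445 from limma), a setting that called 3.04% of all features higher and 2.46% lower. No other feature of the 6 was called in any setting, although scaled arrays called 2.38% of all features higher and 2.45% lower, and a fit without positions of strong repeated ratios 0.772% and 0.584%. With centred blocks 0.00636% were called in each direction. Of all features, 3.18% had a higher mean, and of the named ones only *Nop56* (0.67) and *Nop60B* (0.735), which encode proteins of the nucleolar RNA-modifying particles. It was the only named gene of the 6 on the list of receptor kinases and arrestins.

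**Figure D1:**
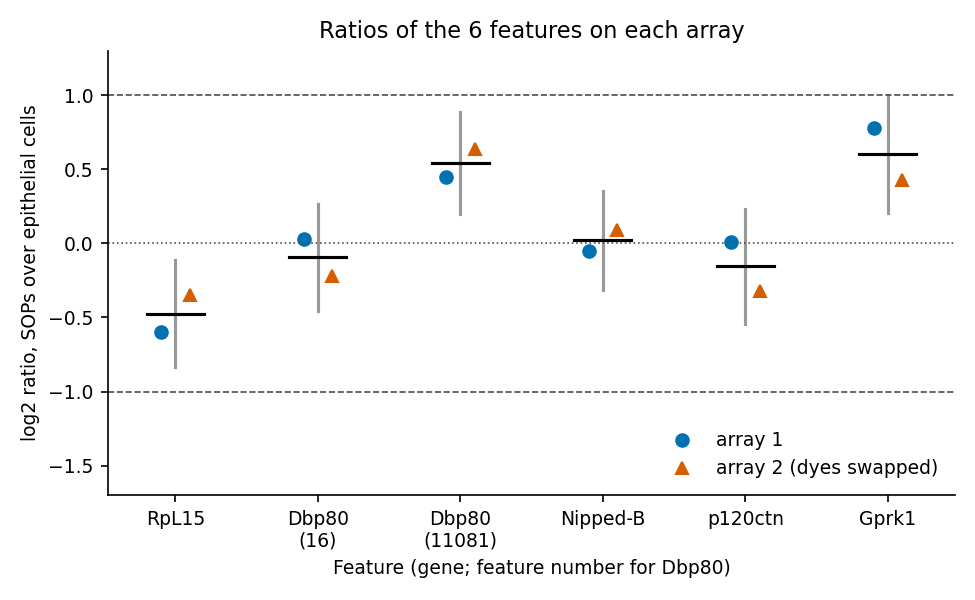
Log2 ratio of SOPs over epithelial cells (vertical axis) for the 6 features of the 5 genes: circles are array 1, triangles array 2, short bars the mean of both and vertical lines the unadjusted 95% interval from limma, with dotted and dashed lines at equality and at a 2-fold change. *RpL15* lies below 0 on both arrays, *Gprk1* and *Dbp80* feature 11081 above 0 on both, and the other 3 features touch or cross 0.

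Ordered by mean ratio, the 6 features ran from *Gprk1* over *Dbp80* feature 11081, *Nipped-B*, *Dbp80* feature 16 and *p120ctn* to *RpL15*. The highest and the lowest were 1.08 apart on the log2 scale, or 2.11-fold. *Gprk1* and *Dbp80* feature 11081 were in opposite order on the arrays (differences of 0.33 and -0.21), and so were *Nipped-B* and *Dbp80* feature 16 (-0.08 and 0.31). These neighbours did not differ beyond their spread. The step from *Dbp80* feature 11081 down to *Nipped-B* was the same on both arrays within 0.05, with 0.5 and 0.55. The steps from *Dbp80* feature 16 to *p120ctn* (0.02 and 0.1) and from there to *RpL15* (0.61 and 0.03) kept their sign but nearly vanished on an array. None of these steps could pass an exact test with 2 arrays.

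The study called genes with a ratio above 2 overexpressed in SOPs, and none of the 6 features reached it, nor a ratio of 0.5 downward. By the mean of the log2 ratios, 155 of all features had a ratio of 2 or more (0.985%) and 267 of 0.5 or less (1.70%). By the arithmetic mean of the ratios 171 reached 2, again none of the 6. For 5 of the 6 features the whole 95% interval lay within a 2-fold change in either direction, and that of *Gprk1* reached 2.003-fold. The share of all features with such an interval was not counted, so this count is no trait of the 6. The intervals reached 0.333 to 0.397 to either side of the mean on the log2 scale. At a ratio of 1.5 or more, passed by 3.45% of all features, *Gprk1* was the only feature of the 6. No feature of the 6 passed the same threshold downward, as 3.67% of all features did.

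Without adjustment, 3 of the 6 features had p under 0.05 in limma, 2 higher (*Gprk1* and *Dbp80* feature 11081) and 1 lower (*RpL15*). Over all features this share was 14.1%, with 7.45% higher and 6.62% lower, and over the 61 other named features it was 21.3%. These 3 features are also the ones with the same sign on both arrays, which 57.8% of all features and 39 of the 61 other named features had. With 6 features from 5 genes, the shares are given as a description.

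The median of the 6 features was -0.0375 on the log2 scale, beside 0.01 for the other named features and -0.005 for all features. Its sign was not stable: it was 0.02 with 1 value per gene, 0.02 on array 1 and -0.065 on array 2. Of the 6, 3 lay above 0 and 3 below. The means of the 6 ranged from -0.475 to 0.605, within the range of the other named features of -0.75 to 0.735. The SD of the means was 0.422 for the 6, 0.294 for the other named features and 0.403 for all features. These spreads were not tested against each other, and the other named features hold many heterochromatic genes too.

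**Figure D2:**
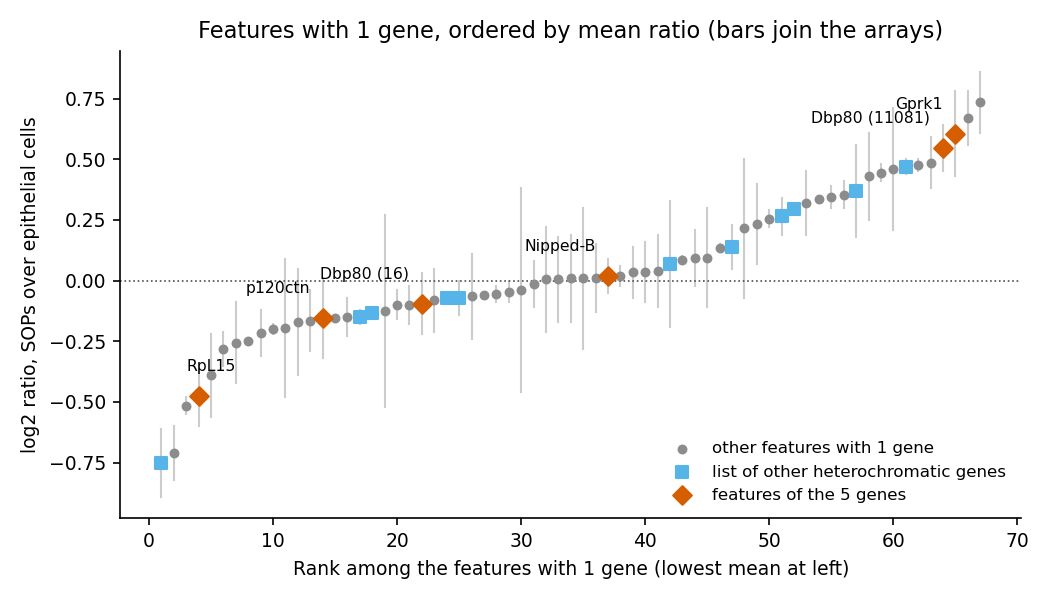
Mean log2 ratio (vertical axis) of the 67 features with a single gene, ordered from the lowest to the highest, with vertical bars joining the values of the 2 arrays. Diamonds mark the 6 features of the 5 genes, which spread from the 4th lowest (*RpL15*) to the 3rd highest (*Gprk1*), and squares the 11 features of the list of other heterochromatic genes, from -0.75 to 0.47.

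Since the dyes were swapped, a dye bias enters the arrays with opposite sign and shows, together with noise, in their difference divided by 2. For the 6 features the size of this value had a median of 0.125 and a maximum of 0.175 (*Gprk1*), beside a median of 0.105 for the other named features and for all features. Array 1 was the higher array for 3 of the 6 features and array 2 for the other 3. For *RpL15*, *Gprk1* and *Dbp80* feature 11081 the mean was larger in size than this value, and for *Nipped-B*, *p120ctn* and *Dbp80* feature 16 it was smaller. With 2 arrays this split is the same as that by equal sign on both arrays and adds nothing to it. The features of the table fall in order into 24 blocks of equal length, and in those that hold the 6 the block median ranged from -0.06 to 0.1 on array 1. On array 2 the same medians ranged from -0.05 to 0.015. The block of *p120ctn* had the highest of these medians on array 1.

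**Figure D3:**
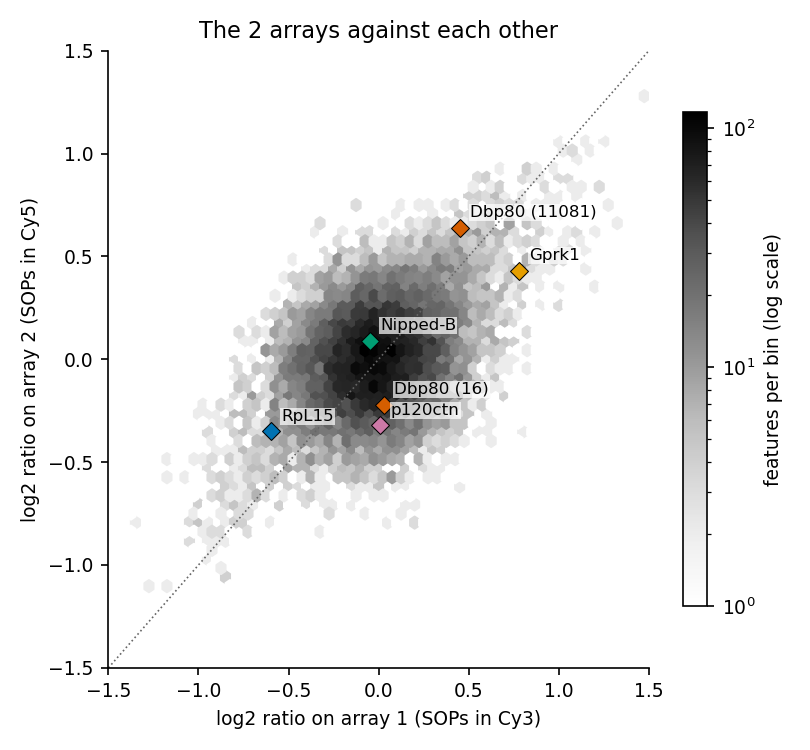
Log2 ratio on array 1 (horizontal axis, SOPs in Cy3) against array 2 (vertical axis, SOPs in Cy5) for features within 1.5 of 0 on both arrays, shaded by their number per bin on a log scale, with the 6 features as coloured diamonds and equality of the arrays as a dotted line. *Gprk1* and *Dbp80* feature 11081 lie at the upper right of the cloud, *RpL15* at the lower left, and *Nipped-B*, *p120ctn* and *Dbp80* feature 16 within its centre.

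Other genes of pericentromeric heterochromatin were read from a list of 49 symbols, of which 10 genes have 11 named features. The list is not complete: it lacks named genes at the same arm ends, such as *Stlk*, *Scp1*, *CG17684* and *mRpS5*. Of the 11 features, 6 had a mean above 0 and 5 below, with a median of 0.07. None passed the test (limma, adjusted over all features), but neither did any of all 15729 features. *Parp1*, the poly(ADP-ribose) polymerase that opens chromatin, had 0.5 on array 1 and 0.44 on array 2, close to *Dbp80* feature 11081. *cta*, a G protein alpha subunit of gastrulation movements, had 0.56 and 0.18, and *Haspin*, a histone H3 kinase of mitosis, 0.29 and 0.3. *lt*, a vacuolar sorting gene and a classic example of a gene that needs heterochromatin, had -0.14 and 0. The 2 features of *eIF4B*, a translation initiation factor, had -0.05 and -0.11 on array 1 and -0.09 and -0.16 on array 2. *MED21*, a subunit of the Mediator complex, had -0.18 and -0.12. At the low end *Cht10* averaged -0.75 ± 0.198 (SD, n = 2; adjusted p = 0.145 from limma), below *RpL15*. The listed heterochromatic genes outside the 5 thus also lay on both sides of 0.

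The Y chromosome, which is heterochromatic throughout, has 6 named features on the list of male fertility genes. Their means were between -0.215 and 0.04, narrower than those of the 5 genes. None passed the test, but neither did any of all 15729 features. Signal over background is unknown, so whether these male fertility genes are expressed in the notum at all cannot be told.

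Named genes close to each other in the RefSeq order had like ratios in some cases and unlike ones in others. On arm 3L *RpL15* and *Dbp80* are separated by 2 listed genes, and *Dbp80* and *eIF4B* also by 2. From the arm towards the centromere the means were -0.475 for *RpL15*, -0.095 and 0.545 for *Dbp80*, and -0.07 and -0.135 for *eIF4B*, so that the lower feature of *Dbp80* was close to *eIF4B* and the higher one was not. On arm 2R *Haspin*, *Gprk1*, *Stlk*, *p120ctn* and *Nipped-B* follow each other within 12 steps of the list. Their means were 0.295, 0.605, 0.215, -0.155 and 0.02. *Stlk*, a kinase-related gene directly before *p120ctn*, had -0.07 on array 1 and 0.5 on array 2, against 0.01 and -0.32 for *p120ctn*, so that these adjacent genes were alike on array 1 and on opposite sides of 0 on array 2. *Gprk1* was higher than each of its 2R neighbours within 10 genes on array 1, while *Stlk* was above it on array 2.

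**Figure D4:**
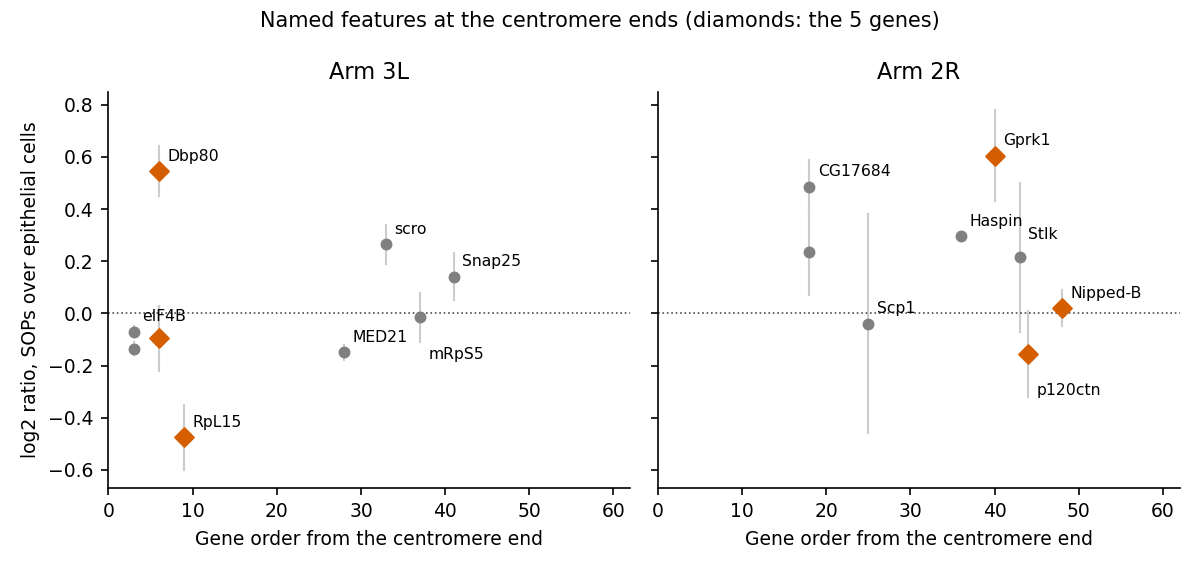
Mean log2 ratio (vertical axis) of the named features among the 60 genes nearest the centromere on arms 3L and 2R, against the place of the gene in the order counted from the centromere end (horizontal axis), with bars joining the arrays and diamonds for the 5 genes. Genes a few places apart lie on both sides of 0: on 3L *RpL15* (-0.475) and *Dbp80* (-0.095 and 0.545), with 2 genes between them, and on 2R *Gprk1* (0.605) and *p120ctn* (-0.155), with 3 between them.

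The named features with the most similar values were found by the distance between the pairs of log2 ratios, over 2 arrays and 61 features. For *RpL15* these were *alc* (distance 0.136), a beta subunit of the AMP-activated kinase, and *Gfat1* (0.233), the enzyme that opens the hexosamine pathway. For *Gprk1* they were a feature of *CG17684* (0.196) and *Mccc2* (0.231), and for *Dbp80* feature 11081 *Ace* (0.165), acetylcholinesterase, and *Nop56* (0.178). Of these, *CG17684* also lies at the centromere end of arm 2R, and *Gfat1* is gene 17 of 4226 in the order on 3R. *Dscam1*, a cell surface protein of neuronal wiring, was the nearest to both *Dbp80* feature 16 (0.0825) and *p120ctn* (0.128). The second nearest were *mRpS5* (0.121), a mitochondrial ribosomal protein, and *Gyg* (0.141). *Nipped-B* was nearest to *Ppr-Y* (0.1) and *Pp1-Y2* (0.117) of the Y chromosome, all of them close to 0. With 2 arrays, nearness says only that both ratios were alike.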

How the data were processed

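The authors hybridised SOP and epithelial RNA on 2 two-colour oligonucleotide arrays and normalized each array by lowess with limma (its version is not given in the sources used here), without background correction. The deposited table gives log2 ratios, rounded to 2 decimals. Their direction was taken from 18 ratios printed with the study for overexpressed genes (those from 4 to under 14): 15 of them equal the arithmetic mean of a feature within rounding (0.005 on the log2 scale), and 5 with the sign turned. Centring beyond lowess is unknown. Since no scanner intensities were used, signal over background is not known. The precision is limited by the number of arrays.

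Features without a value on an array were left out (15 of 15744). Of 68 annotated features 67 name 1 gene, and 62 of these were found in the RefSeq table (Release 6), with all 5 genes and no changed symbol. limma 3.58.1 in R 4.3.3 was fitted to 15729 features with the mean as the only term, eBayes and Benjamini-Hochberg adjustment at 0.05, and the code was tested on simulated data. Tables and figures were made in Python 3.11.15 (matplotlib 3.10.9, numpy 2.4.6, pandas 2.3.3). Whether each array held its own extract is not stated, so the spread behind the p-values may be technical only.

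Members, lists and tests were chosen with earlier results of these data known. Named were all features of the 5 genes, the 2 nearest named features of each, the 3 highest and 3 lowest other named features, members of the lists, and named genes within 10 genes of a member. Alternatives were each array alone, centred or scaled arrays, robust moderation, a test against a fold change of 1.2, other ratio thresholds, 1 value per gene, and leaving out 13 positions with strong ratios in all 24 blocks of the table (312 features, none of them named). Centring each block was added after seeing the data.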

Additional observations from a re-analysis of the deposited data

How the results depend on the processing

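The mean ratios of the 6 features kept their direction with centred arrays, scaled arrays and centred blocks. Robust moderation, leaving out the repeated positions and the test against a fold change of 1.2 leave these means as they are and bear on the test only. Over these 6 settings none but *Gprk1* changed its side of the threshold. *Gprk1* passed with robust moderation (0.605, adjusted p = 0.0445 from limma), against adjusted p of 0.0671 to 0.640 in the other settings, so that features called among the 6 were 1 there and 0 otherwise. The lowest adjusted p over the settings was 0.0579 for *Dbp80* feature 11081 and 0.105 for *RpL15*. Over all features limma called 0, while an unadjusted p under 0.05 was reached by 1172 upward and 1041 downward. With scaled arrays the calls were 375 upward and 385 downward, with robust moderation 478 and 387, without the repeated positions 119 and 90, and with centred blocks 1 and 1. The cause was not tested. A ratio of 2 or more was reached by 155 features, by 70 when each array had to pass and by 542 at a ratio of 1.5, where *Gprk1* made the count among the 6 rise from 0 to 1.

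On a single array, which allows no test, the ratio was -0.6 or -0.35 for *RpL15*, 0.45 or 0.64 for *Dbp80* feature 11081 and 0.78 or 0.43 for *Gprk1*. It changed sign for *Dbp80* feature 16 (0.03 or -0.22), *Nipped-B* (-0.05 or 0.09) and *p120ctn* (0.01 or -0.32). Calls over all features need both arrays. No paired analysis was possible because each array already holds both cell types and there is a single group. Signal over background is unknown, so a dim feature cannot be told from a bright one.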
